A study of Mus musculus with 8 samples.

Results

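The genes of SREBP processing and sterol sensing were followed here in MTP KO and WT MA-10 cells. They are 9 genes, chosen by their function: Srebf1 and Srebf2, the precursors of the transcription factors SREBP1 and SREBP2; Scap, Insig1 and Insig2, the sterol sensor and its anchors; Mbtps1 and Mbtps2, the proteases that release the factor; and Erlin1 and Erlin2, scaffold proteins of the ER membrane. Each was found by its symbol, and the 9 make up the set out of 54532 genes in the count table. All 9 had enough counts to be tested, among 13185 genes that did.

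MA-10, a line from a mouse Leydig cell tumour, secretes progesterone once cAMP signalling is switched on. The KO cells carry CRISPR/Cas9 edits of Mttp, the gene of the lipid-transferring subunit of microsomal triglyceride transfer protein (MTP), introduced by electroporation of Cas9 with guide RNAs and established as a clone, while the WT cells are MA-10 cells without that edit. Both groups, with 4 libraries each, were cultured for 48 h and received 0.5 mM 8-BrcAMP, a cell-permeable cAMP analog, for 3 h before RNA was taken, so no value here describes unstimulated cells. The sources used here do not name the KO clone that was sequenced, and the loss of MTP and the growth of a clone cannot be told apart. In the labels all 8 libraries carry a wild-type genotype entry, and the groups follow the library titles. The study describes its libraries as biological replicates from cells plated in triplicate. How plates and libraries correspond is not stated, so a p here reflects only the spread among these libraries, and part of it may be technical. The comparison asks how the transcripts of the sterol-sensing system differ when MTP is missing from stimulated Leydig cells.

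SREBPs are made as membrane proteins of the ER, where each is bound to SCAP. When ER cholesterol is high, SCAP is held back by INSIG proteins. When it falls, SCAP enters COPII vesicles and carries the SREBP to the Golgi, where site-1 protease (Mbtps1) and then site-2 protease (Mbtps2) cut it, and the freed N-terminal part enters the nucleus. SREBP2 mainly drives genes of cholesterol synthesis and uptake, and SREBP1 mainly those of fatty acid synthesis. Insig1 and Srebf2 are themselves known targets of SREBP, which closes a feedback loop, and in Leydig cells the cholesterol obtained in this way is a substrate for steroids. Processing is a step of the protein, and transcript counts do not measure it.

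The promoters of Insig1 and Srebf2 are shown because these genes are known to answer to the factors the system releases, and that of Hmgcs1, an enzyme of cholesterol synthesis, as a gene whose window held the full element searched for. The sequences are RefSeq's for GRCm38.p6, 5′ to 3′ on the strand of the gene. Each promoter window runs from 250 bases before the start site to 50 after it, on chromosome 5 for Insig1 (chr5:28071162-28071461, plus strand) and on chromosome 15 for Srebf2 (chr15:82147019-82147318, plus strand). For Hmgcs1 a stretch of 49 bases around the element is given (chr13:119690194-119690242, plus strand). Capitals mark matches on either strand to TCACNCCAC (the core of a sterol regulatory element), to its first 8 letters TCACNCCA, to CACGTG (an E-box), to CCAAT (bound by NF-Y) and to GGGCGG (a GC box, bound by Sp1).
Insig1 promoter: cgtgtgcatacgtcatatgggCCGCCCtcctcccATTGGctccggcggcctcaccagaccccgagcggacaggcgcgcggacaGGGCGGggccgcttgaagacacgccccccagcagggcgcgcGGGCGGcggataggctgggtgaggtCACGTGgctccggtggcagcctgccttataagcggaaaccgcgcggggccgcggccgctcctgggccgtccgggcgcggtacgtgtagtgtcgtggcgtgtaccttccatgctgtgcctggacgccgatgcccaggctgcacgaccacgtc
Srebf2 promoter: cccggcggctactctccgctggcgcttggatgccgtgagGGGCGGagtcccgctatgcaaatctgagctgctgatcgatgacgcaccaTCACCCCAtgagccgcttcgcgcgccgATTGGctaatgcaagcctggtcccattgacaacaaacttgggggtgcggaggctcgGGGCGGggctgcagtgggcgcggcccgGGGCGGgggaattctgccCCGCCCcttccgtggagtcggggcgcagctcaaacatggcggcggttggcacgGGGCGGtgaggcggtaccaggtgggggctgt
Hmgcs1 promoter, part: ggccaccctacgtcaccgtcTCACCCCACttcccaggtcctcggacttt

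The full core TCACNCCAC was found in none of the 15 windows of the 8 genes with a promoter entry, and in 1.24% of all 32851 promoter windows. Erlin2 had no entry. The shorter TCACNCCA, a search added after the sequences had been seen, was found in Srebf2, starting 162 bases before the start site, and in none of the other 7 genes with an entry. It occurred in 4.36% of all windows. In the same Srebf2 window a CCAAT on the opposite strand began 135 bases before the start site, and 5 GC boxes were found. The Insig1 window held an E-box that began 101 bases before the start site, a CCAAT on the opposite strand at 216 bases and 3 GC boxes. E-boxes were found in 7.15% of all windows, CCAAT in 37.4% and GC boxes in 35.7%. These are matches of letters only, the shorter motif lies within the longer one, and the windows do not cover elements further away.

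Srebf2 also hosts Mir33 in an intron, the gene of a miRNA known to repress Abca1. The mature form is printed because it shares its transcript with Srebf2, with the seed (bases 2 to 8) in capitals. It lies on chromosome 15 (chr15:82198127-82198147, plus strand, GRCm38.p6).
miR-33-5p: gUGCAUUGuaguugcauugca

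The table gave Mir33 1 count, in KO library 3, and 0 in the other 7 libraries. RNA was selected by its poly(A) tail, so mature miRNAs were not measured.

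The libraries held 14927989 to 18394797 counts in KO cells and 15075610 to 16321292 in WT cells. Mttp, the targeted gene, had 5.09, 4.52, 6.75 and 7.13 CPM (counts after TMM scaling for library size) in KO libraries 1 to 4, against 12.9, 11.9, 13.3 and 14.4 CPM in WT libraries 1 to 4. It fell by 1.15 on the log2 scale (edgeR adjusted p = 4.45e-06), and a transcript that carries an edit is still counted. Genes of chromosome 19 were shifted upward in KO cells, with a median log2 fold change of 0.51 over 446 tested genes, and those of chromosome 3 downward, with a median of -0.22 over 631, while the median over all tested genes was -0.0019. Erlin1 is the gene of the set on chromosome 19. Of 7 Leydig cell markers 5 were called higher in KO cells (71.4%) and 0 lower by edgeR, against 21.7% and 21.1% of all tested genes. The list summed to 7140 to 7870 CPM in KO libraries and 6570 to 7450 CPM in WT libraries. Star, the carrier of cholesterol into mitochondria and the most abundant of them, averaged 5290 CPM in KO cells and 5685 CPM in WT cells and was not called.

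Markers of other cell types also moved with genotype. Of the 5 macrophage markers 2 were tested and both fell, with sums of 6.47 to 8.98 CPM in KO libraries and 16.4 to 21.4 CPM in WT libraries, and the defining markers Adgre1, Ptprc and Lyz2 were at 0 in all libraries. Of the 4 endothelial markers 2 were tested and Cdh5, a cadherin of endothelial junctions, fell. The sums were 100 to 120 CPM in KO libraries and 182 to 210 CPM in WT libraries. Of 5 myoid and fibroblast markers only Col1a1, the collagen chain, was tested, and it fell to 0.387 CPM in KO cells, against 10.5 CPM in WT cells. That list summed to 0.599 to 0.809 CPM in KO libraries and 8.20 to 12.9 CPM in WT libraries, and Dcn was at 0 throughout. Among Sertoli cell markers 1 of 5 tested was called, Rhox5, which was higher. That share of 20.0% is near the 21.7% over all tested genes. The Sertoli sums were 1440 to 1580 CPM in KO libraries and 1200 to 1310 CPM in WT libraries. Of 6 germ cell markers 2 were tested and neither was called, with sums of 3.51 to 5.97 CPM in KO libraries and 1.89 to 4.53 CPM in WT libraries, and Tnp1 was at 0 throughout. The libraries are of the MA-10 line and a clone of it, not of tissue, so these markers do not count cells of other types. Whether fewer cells held a transcript or each held less of it cannot be told apart in bulk RNA. The part of these markers in the results below was not tested.

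Of the 9 genes, 7 were called higher in KO cells at an adjusted p below 0.05 by edgeR, against 21.7% of all tested genes, and 0 were called lower, against 21.1%. In either direction 42.7% of all tested genes were called. No gene of the set was lower at an unadjusted p below 0.05 either, nor with DESeq2 or limma. Insig2 and Mbtps2 were not called. The median log2 fold change of the 9 was 0.27, and all 9 estimates were above 0. In 6 of them every KO library lay above every WT library, which held for 19.7% of all tested genes. Only Insig1, Erlin1 and Srebf2 were called with a log2 fold change above 0.5, as were 7.35% of all tested genes in that direction. Relative to the medians of their chromosomes Insig1 rose by 1.40, Srebf2 by 0.42 and Erlin1 by 0.30, and 5 of the 9 genes were called higher. The plot of levels by library shows the values of every gene.

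**Figure D1:**
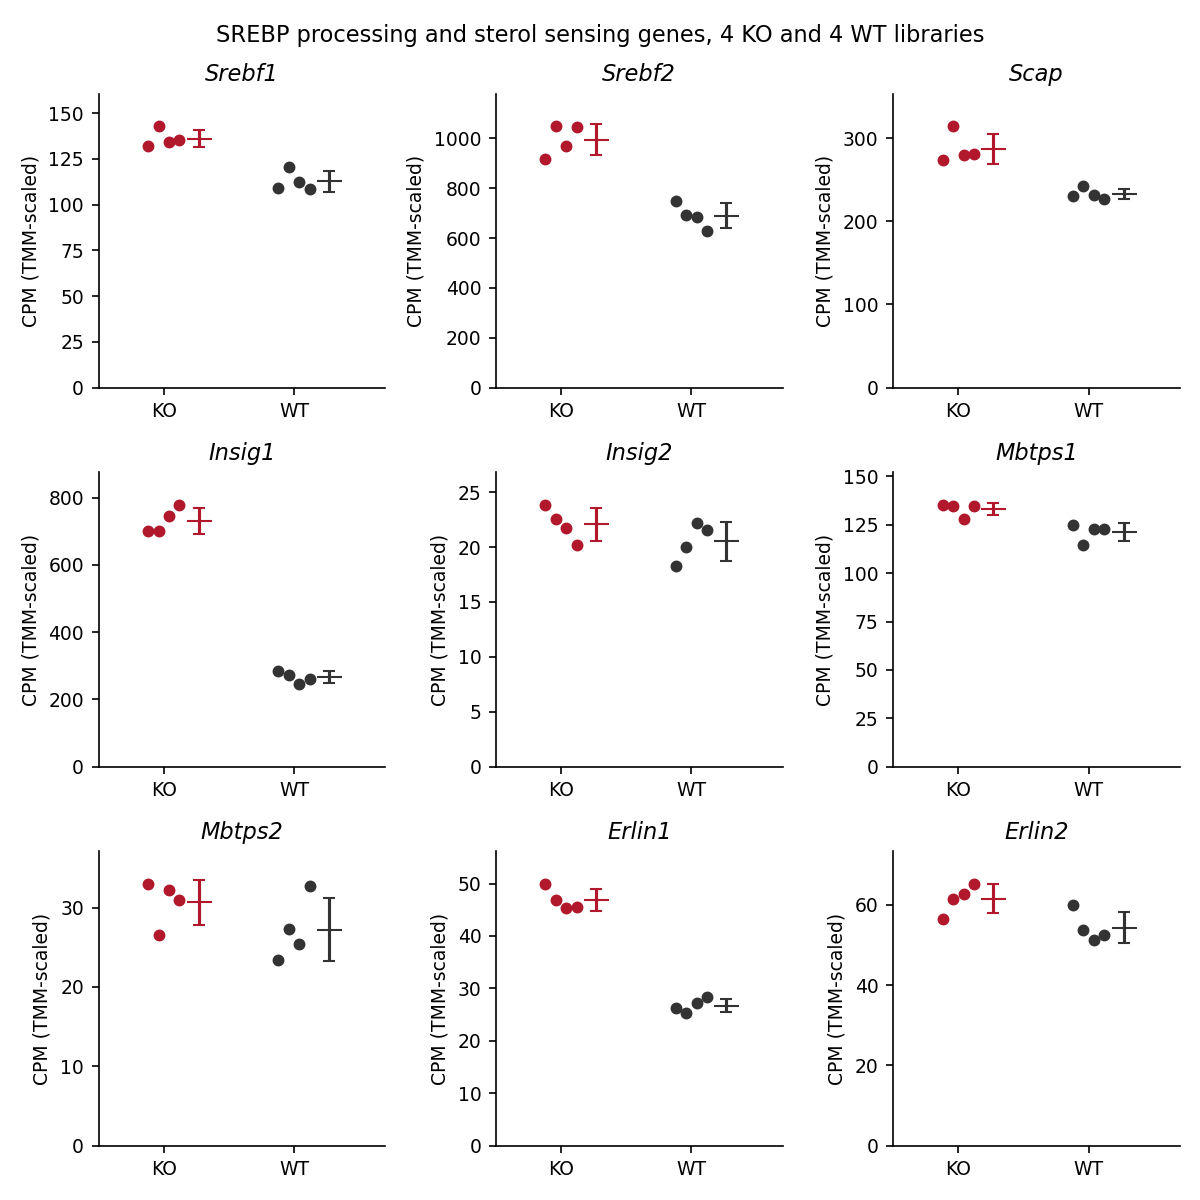
Level of each of the 9 genes in CPM (TMM-scaled, axes from 0) in the 4 KO libraries (red) and 4 WT libraries (black), with the mean and SD beside the points. The 4 KO points lie above the 4 WT points for Srebf1, Srebf2, Scap, Insig1, Mbtps1 and Erlin1, and the groups overlap for Insig2, Mbtps2 and Erlin2.

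Srebf2 encodes the precursor of SREBP2, on chromosome 15 (82147181 to 82205379, plus strand, positions of the table in GRCm38). It had 917, 1049, 969 and 1047 CPM in KO libraries 1 to 4, against 751, 691, 686 and 629 CPM in WT libraries 1 to 4. The lowest KO library was above the highest WT library. Srebf2 rose by 0.53 on the log2 scale (SE 0.0579, edgeR adjusted p = 2.04e-06), or 1.44-fold (95% interval 1.33 to 1.57). Relative to the median of chromosome 15 the change was 0.42. Gm49502, an unclassified transcript inside the Srebf2 gene on the same strand, had 31, 15, 41 and 36 counts in KO libraries and 14, 9, 5 and 10 counts in WT libraries, while Srebf2 itself had at least 9969 counts in each library.

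Srebf1 encodes SREBP1, whose forms 1a and 1c differ in their first exon and were counted together. On chromosome 11 (60199089 to 60222581, minus strand), it had 132, 143, 134 and 135 CPM in KO libraries, against 109, 120, 112 and 108 CPM in WT libraries. Here too the lowest KO library was above the highest WT library. The log2 fold change was 0.27 (SE 0.0506, edgeR adjusted p = 4.11e-04). Rai1 overlaps its 3′ end on the opposite strand, with 284 to 366 counts in any library, and the sources used here do not say whether reads were counted by strand.

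Within each library the ratio of Srebf2 to Srebf1 was formed from levels per length, so that it needs no scaling between libraries. It was 5.46, 5.76, 5.67 and 6.06 in KO libraries, against 5.38, 4.50, 4.79 and 4.56 in WT libraries. WT library 1 lay just below the lowest KO library, and the other WT libraries lay lower. The log2 ratio was 0.26 higher in KO cells (exact permutation test, 2-sided, p = 0.0286, adjusted over 6 ratios 0.0343, n = 4 each), and 0.0286 is the smallest p that 4 against 4 allows.

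Scap, the escort that carries a sterol-sensing domain, lies on chromosome 9 (110333288 to 110384950, plus strand). Its levels were 273, 314, 280 and 281 CPM in KO libraries, against 231, 242, 231 and 227 CPM in WT libraries. KO library 2 was the highest of the 8, and no KO library reached down to a WT library. Scap rose by 0.30 (log2, SE 0.0509, edgeR adjusted p = 1.70e-04), or 1.23-fold (95% interval 1.14 to 1.33). Srebf2 rose more than Scap, and the ratio of Srebf2 to Scap averaged 3.60 ± 0.187 in KO cells and 3.07 ± 0.217 in WT cells (SD, exact permutation p = 0.0286, adjusted 0.0343, n = 4 each).

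Insig1, the sterol-responsive anchor of SCAP, showed the largest change of the 9. It lies on chromosome 5 (28071363 to 28078662, plus strand) and had 699.7, 700.5, 746 and 777 CPM in KO libraries, against 284, 274, 245 and 261 CPM in WT libraries. Every KO library lay far above every WT library, and the spread within each group was small beside the gap. Insig1 rose by 1.46 on the log2 scale (SE 0.0548, edgeR adjusted p = 1.32e-11), a 2.75-fold difference (95% interval 2.54 to 2.98). By size it ranked 121 from the top of the 13185 tested genes, and by p it ranked 20. The change ranged from 1.43 to 1.49 when any single library was left out.

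Insig2 encodes the second anchor, and is known to depend less on SREBP than Insig1. On chromosome 1 (121304353 to 121332589, minus strand), it had 23.8, 22.5, 21.7 and 20.2 CPM in KO libraries, against 18.2, 20.0, 22.2 and 21.6 CPM in WT libraries. These ranges overlapped, with WT library 3 above 2 of the KO libraries. Its log2 fold change was 0.11 (95% interval -0.07 to 0.28, edgeR adjusted p = 0.327). With 298 to 412 counts per library, counting error alone was at most 5.79% of a value, and an increase of the size seen for Insig1 lies outside the interval.

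The paralogs therefore differed in response, and this difference was tested directly. The ratio of Insig1 to Insig2 was 33.0, 34.9, 38.6 and 43.3 in KO libraries, against 17.5, 15.4, 12.4 and 13.6 in WT libraries. The lowest KO ratio was well above the highest WT ratio, and the log2 ratio was 1.35 higher in KO cells (exact permutation p = 0.0286, adjusted 0.0343, n = 4 each). The sum of both anchor transcripts per escort transcript, (Insig1 + Insig2) to Scap, averaged 6.32 ± 0.567 in KO cells and 2.94 ± 0.157 in WT cells (SD, exact permutation p = 0.0286, adjusted 0.0343, n = 4 each). This log2 ratio was 1.10 higher in KO cells. It mostly follows Insig1, whose level per length averaged 631 in KO cells and 229 in WT cells, against 16.9 and 15.7 for Insig2.

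**Figure D2:**
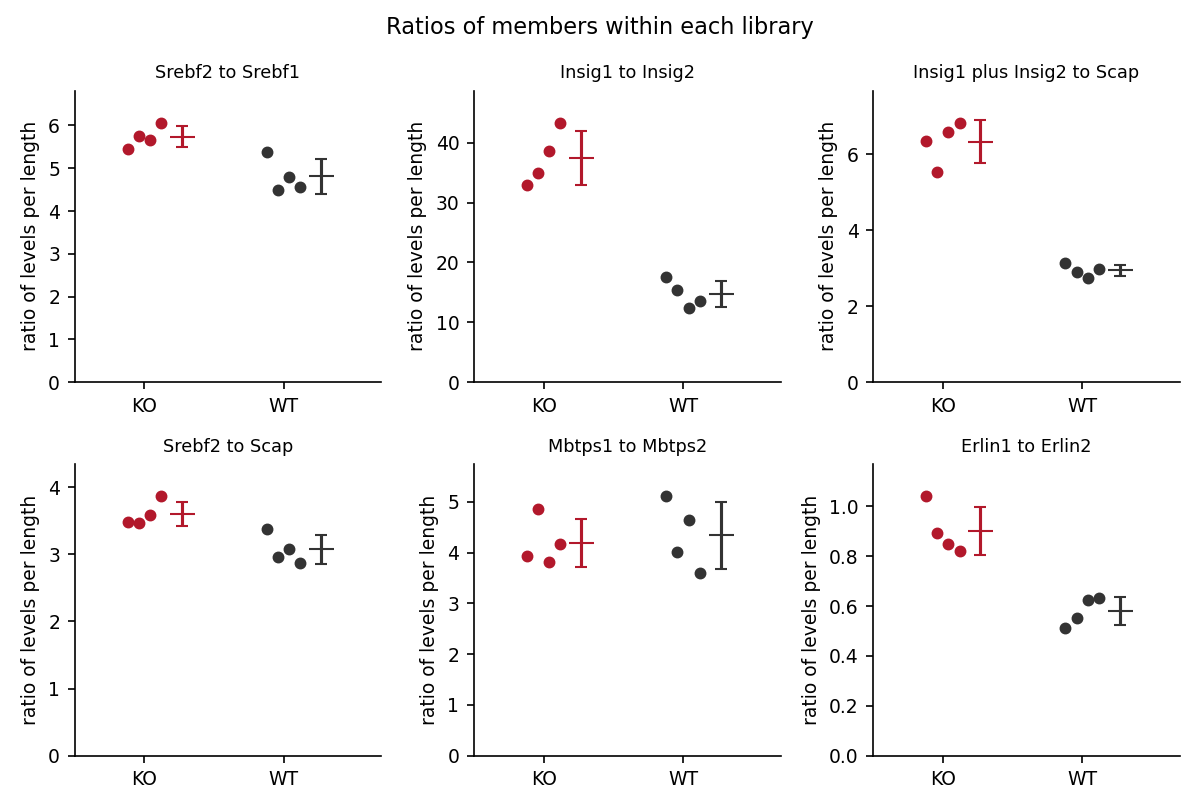
Ratios of levels per length within each library for 6 pairs of genes, with 4 KO libraries (red) left of 4 WT libraries (black) and the mean and SD beside them (axes from 0). KO and WT points are apart in 5 panels, and overlap for Mbtps1 to Mbtps2, which averaged 4.20 in KO cells and 4.34 in WT cells.

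The proteases changed little. Mbtps1, site-1 protease, lies on chromosome 8 (119508156 to 119558735, minus strand) and had 135.1, 134.7, 128.2 and 134.5 CPM in KO libraries, against 125.0, 114.5, 123.0 and 123.0 CPM in WT libraries. The groups were apart, though KO library 3 lay closer to WT library 1 than to the other KO libraries. The log2 fold change was 0.13 (SE 0.0476, 95% interval 0.03 to 0.23, edgeR adjusted p = 0.0340). The call was lost without KO library 1, 2 or 4 or WT library 2 or 3 (adjusted p up to 0.119), and relative to the median of its chromosome (adjusted p = 0.109).

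Mbtps2, site-2 protease, lies on the X chromosome (157535371 to 157598715, minus strand). It had 32.9, 26.6, 32.2 and 31.0 CPM in KO libraries, against 23.4, 27.3, 25.4 and 32.7 CPM in WT libraries. KO libraries 2, 3 and 4 lay within the WT range, and WT libraries 2 and 4 within the KO range. The log2 fold change of 0.17 was not called (95% interval -0.03 to 0.38, edgeR adjusted p = 0.161), but became 0.28 with an adjusted p of 0.0132 without WT library 4. The ratio of Mbtps1 to Mbtps2 was 3.93, 4.86, 3.82 and 4.17 in KO libraries and 5.11, 4.02, 4.64 and 3.60 in WT libraries (exact permutation p = 0.771). Its log2 difference of -0.04 turned to 0.04 without WT library 1.

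Erlin1 and Erlin2 form rings in the ER membrane that take part in ER-associated degradation, and they are known to restrain SREBP activation. Erlin1 had 49.9, 46.8, 45.4 and 45.5 CPM in KO libraries, against 26.2, 25.3, 27.1 and 28.3 CPM in WT libraries. The KO and WT libraries formed separate groups, with all KO values close to each other. The log2 fold change was 0.81 (SE 0.0613, edgeR adjusted p = 3.60e-08), or 1.75-fold (95% interval 1.60 to 1.92). It lies on chromosome 19 (44034944 to 44069785, minus strand), whose genes had a median of 0.51, and relative to that median the change was 0.30 (edgeR adjusted p = 0.00112).

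Erlin2, on chromosome 8 (27023261 to 27040328, plus strand), had 56.6, 61.5, 62.8 and 65.1 CPM in KO libraries, against 60.0, 53.6, 51.1 and 52.6 CPM in WT libraries. KO library 1 was below WT library 1, and the other KO libraries were above all WT libraries. The log2 fold change was 0.18 (SE 0.0639, edgeR adjusted p = 0.0342). This call was lost without any one of KO libraries 2 to 4 or WT libraries 2 to 4 (adjusted p up to 0.0984), and relative to the median of its chromosome (adjusted p = 0.0842). The ratio of Erlin1 to Erlin2 was 1.04, 0.894, 0.849 and 0.820 in KO libraries, against 0.513, 0.553, 0.623 and 0.633 in WT libraries. That log2 ratio was 0.63 higher in KO cells (exact permutation p = 0.0286, adjusted 0.0343, n = 4 each), beside a shift of 0.51 for chromosome 19 as a whole.

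**Figure D3:**
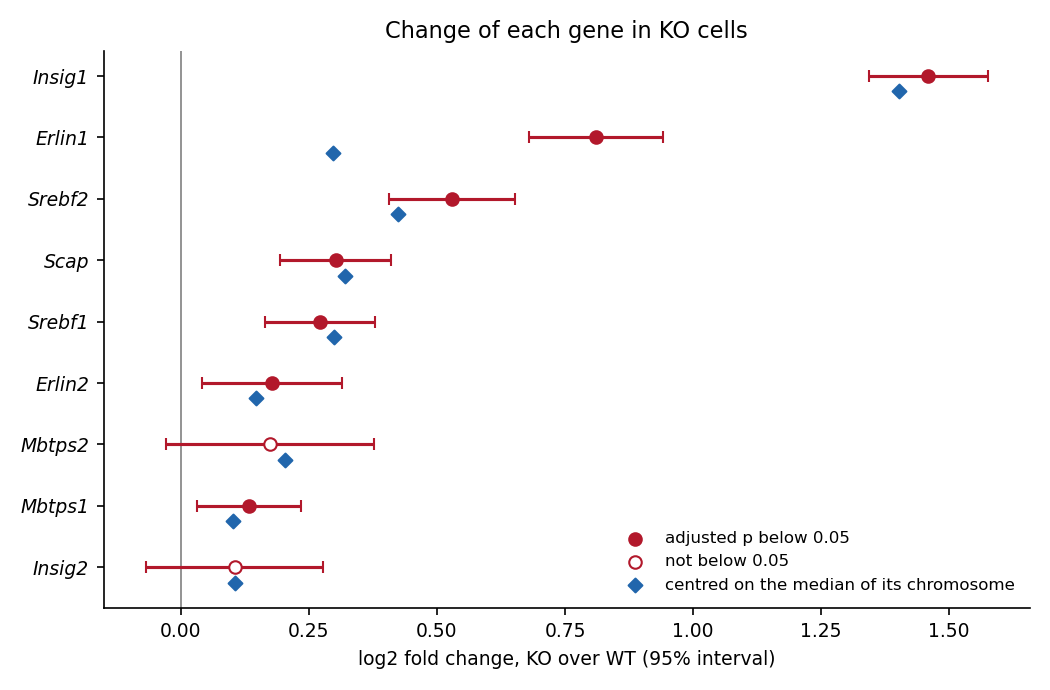
Log2 fold change of each gene, KO over WT, with its 95% interval (circles, filled where the adjusted p was below 0.05), and the change relative to the median of the gene's chromosome (diamonds). Insig1 stands at 1.46, and Erlin1 moves to 0.30 when its chromosome is taken as the baseline.

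Levels of different genes were compared as TPM, counts per length scaled to the same sum in each library. In KO cells Insig1 was the most abundant at 631 ± 40.9 TPM (SD, n = 4), followed by Srebf2 at 370 ± 31.3 TPM, Scap at 103 ± 8.72 TPM, Srebf1 at 64.5 ± 3.71 TPM and Mbtps1 at 33.7 ± 0.888 TPM. Erlin2 at 28.2 ± 2.24 TPM and Erlin1 at 25.2 ± 0.642 TPM overlapped, and Insig2 at 16.9 ± 1.01 TPM and Mbtps2 at 8.09 ± 0.655 TPM came last. In WT cells Srebf2 at 256 ± 27.3 TPM came before Insig1 at 229 ± 20.3 TPM. Their ranges over libraries overlapped, but within each of the 4 WT libraries Srebf2 was the higher, at 287, 259, 256 and 221 TPM, while Insig1 had 253, 239, 212 and 213 TPM. Scap, Srebf1, Mbtps1 and Erlin2 followed in the same order as in KO cells, and Insig2 at 15.7 ± 1.10 TPM and Erlin1 at 14.3 ± 0.408 TPM overlapped. Per length, Insig1 thus stood above Srebf2 in every KO library and below it in every WT library, and Mbtps2 was the least abundant in both groups. This order rests on the gene length used. In CPM, without length, Srebf2 averaged 995.5 and Insig1 730.9 in KO cells. Insig2 then averaged below Mbtps2, at 22.05 against 30.66 CPM in KO cells and 20.52 against 27.23 CPM in WT cells.

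The genes with profiles nearest to Insig1 were found by the root mean square difference of log2 level from the WT mean over the 8 libraries, among 9645 protein-coding genes. They were Fads1 (0.0813), a desaturase of fatty acids, Mvd (0.0942), which decarboxylates mevalonate diphosphate, Selenop (0.0949), a selenium carrier, Rasa3 (0.0984), a GTPase-activating protein, and Map6d1 (0.107). For Srebf2 the nearest were Csdc2 (0.0366), St3gal1 (0.0411), a sialyltransferase, Slc7a1 (0.0418), a transporter of cationic amino acids, Smarca2 (0.0431), an ATPase of chromatin remodelling, and Kcnh2 (0.0484), a potassium channel. Csdc2 and St3gal1 lie on chromosome 15 with Srebf2, and Fads1 and Smarca2 lie on chromosome 19. Relative to the medians of their chromosomes Fads1 rose by 0.86 and Insig1 by 1.40 (log2). A gene with a like change in KO cells lies near by this measure, whatever its function.

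Genes controlled by SREBP were mostly higher in KO cells. Of 20 tested enzymes of cholesterol synthesis 19 rose and 0 fell by edgeR, with a median log2 fold change of 0.83, and 0 fell at an unadjusted p below 0.05, with DESeq2 or with limma. Mvd rose by 1.45. Tm7sf2, a sterol reductase, rose by 1.28 and by 0.77 relative to its chromosome 19, and Hmgcs1, the synthase shown above, rose by 1.20 (all log2). Of 7 tested other targets of SREBP2, 5 rose (71.4%) and 0 fell, beside the same shares over all tested genes. Their median was 0.20, and again 0 fell by the other counts. Stard4, a carrier of cholesterol, rose by 0.94, Rdh11, a retinol dehydrogenase, by 0.36, and Acss2, which makes acetyl-CoA, by 0.20.

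Fatty acid genes under SREBP1 divided. Of 13 tested 8 rose (61.5%) and 0 fell, with a median of 0.35, against 21.7% and 21.1% over all tested genes. Also 0 fell at an unadjusted p below 0.05 and with DESeq2 and limma. The changes of largest size were in Gpam (1.38), an acyltransferase, Fads1 (1.37) and Fads2 (1.19), desaturases of polyunsaturated chains, and Scd2 (1.17), which makes oleate. All 4 lie on chromosome 19, and relative to it they were 0.86, 0.86, 0.67 and 0.66. Scd1, also among the 8 that rose, lies there too, at 0.84 and at 0.33 relative to chromosome 19. The 5 not called were Fasn (-0.0085), Acaca (0.08), Acly (-0.06), Elovl6 (-0.06) and Me1 (0.09). Me1, the malic enzyme and the most abundant of the list over both groups, averaged 2447 CPM in KO cells and 2304 CPM in WT cells. Of 7 tested genes of the LXR system, which drives Srebf1, 3 rose (42.9%) and 1 fell (14.3%), with a median of 0.20. Over all tested genes these shares were 21.7% and 21.1%. Abca1, the exporter of cholesterol, rose by 0.76, Nr1h2, one of the LXRs, by 0.22 and Rxrb, a partner of the LXRs, by 0.20. Smpdl3a, a known LXR target in macrophages, fell to 0.610 CPM in KO cells, against 2.04 CPM in WT cells.

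The COPII coat, which carries SCAP and SREBP out of the ER, went the other way. Of 12 tested genes 0 rose and 5 fell by edgeR, with a median of -0.14, against 21.1% of all tested genes called lower. At an unadjusted p below 0.05 there was 1 higher gene, with DESeq2 and limma 0, and without KO library 1 there was 1. The 5 were the cargo adaptors Sec24b, which fell by 0.51, Sec24d, which fell by 0.32, and Sec24a, which fell by 0.29, and the outer coat genes Sec13, which fell by 0.31, and Sec31a, which fell by 0.27 (all log2). Sec24b and Sec24d lie on chromosome 3, and relative to its median they changed by -0.29 and -0.10. With every chromosome centred in this way 4 of the 12 were called lower.

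Of 18 tested genes for sterol-dependent degradation in the ER 5 rose (27.8%) and 3 fell (16.7%), with a median of 0.07. These shares are near the 21.7% and 21.1% over all tested genes and are no result about the list. Derl2, a channel component, rose by 0.27 and Marchf6, a ubiquitin ligase for squalene epoxidase, by 0.27, while Rnf145, a ligase that binds sterols, fell by 0.20. Syvn1, the ligase of the main degradation complex, rose by 0.19 but stood at -0.32 relative to its chromosome 19. Vcp, the ATPase that extracts ubiquitinated proteins, averaged 628 CPM in KO cells and 594 CPM in WT cells and was not called. When a library was left out the counts ranged from 3 to 5 higher and from 0 to 3 lower, with 0 lower without KO library 4 or WT library 2, 3 higher without KO library 2, 3 or 4, and 1 lower without KO library 3.

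Of 18 tested further partners and modifiers of SCAP, the proteases or SREBP 4 rose and 4 fell (22.2% each), with a median of 0.03, shares near the 21.7% and 21.1% over all tested genes. Trim21, a ubiquitin ligase, fell by 0.67 at 2.60 CPM in KO cells, against 4.14 CPM in WT cells. Sirt1, a deacetylase, fell by 0.45, Crtc2, a CREB coactivator that also binds COPII, by 0.36, and Fbxw7, which marks nuclear SREBP for degradation, by 0.26. Crtc2 and Fbxw7 lie on chromosome 3, and relative to its median they changed by -0.13 and -0.04. Kpnb1, the importin of nuclear SREBP2, rose by 0.15. Of 10 tested co-factors at promoters 3 rose and 1 fell, with a median of 0.07. Beside the 21.7% and 21.1% over all tested genes, counts among so few genes are no result about the list. Sp1, which binds GC boxes, rose by 0.47 and Usf2, which binds E-boxes, by 0.37. Of the NF-Y subunits Nfyc rose by 0.20 while Nfya fell by 0.23.

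Other proteins cut by the same proteases, or built like the genes described, were also counted. Of 7 tested substrates of site-1 protease 4 rose (57.1%) and 0 fell, with a median of 0.17. Over all tested genes 21.7% were called higher and 21.1% lower. Of the substrates 0 also fell at an unadjusted p below 0.05 and with DESeq2 and limma. The 4 that rose were 3 with DESeq2 and 3 with chromosomes centred. Creb3l1, an ER membrane transcription factor, rose by 1.07, at 66.9 CPM in KO cells against 31.9 CPM in WT cells. Its relatives Creb3 and Creb3l2 rose by 0.48 and 0.47, and Gnptab, the phosphotransferase of lysosomal enzymes, by 0.17. Atf6, the ER stress sensor, averaged 248 CPM in KO cells and 236 CPM in WT cells and was not called. Of 5 tested genes with a sterol-sensing domain 3 rose (60.0%) and 0 fell, with a median of 0.20. With DESeq2 2 rose. Also 0 fell at an unadjusted p below 0.05, with DESeq2 and with limma, and 1 fell without WT library 4. Among the 3 that rose by edgeR were Dhcr7, the last enzyme of cholesterol synthesis, with 0.41, and Disp1, the Hedgehog exporter, with 0.20. In the prohibitin family, to which the Erlins belong, 2 of 7 rose (28.6%) and 3 fell (42.9%), with a median of 0.05. The higher share is near the 21.7% over all tested genes. Stoml1 rose by 0.56 at 4.95 CPM in KO cells, against 3.33 CPM in WT cells, while Stom, Flot2 and Flot1, of membrane microdomains, fell by 0.33, 0.27 and 0.17. Phb2, of the mitochondrial inner membrane, was not called. The higher count in this family ranged from 0 to 3 when a library was left out. It was 0 without KO library 2 or WT library 2, and 1 without KO library 1 or WT library 1 or 3.

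**Figure D4:**
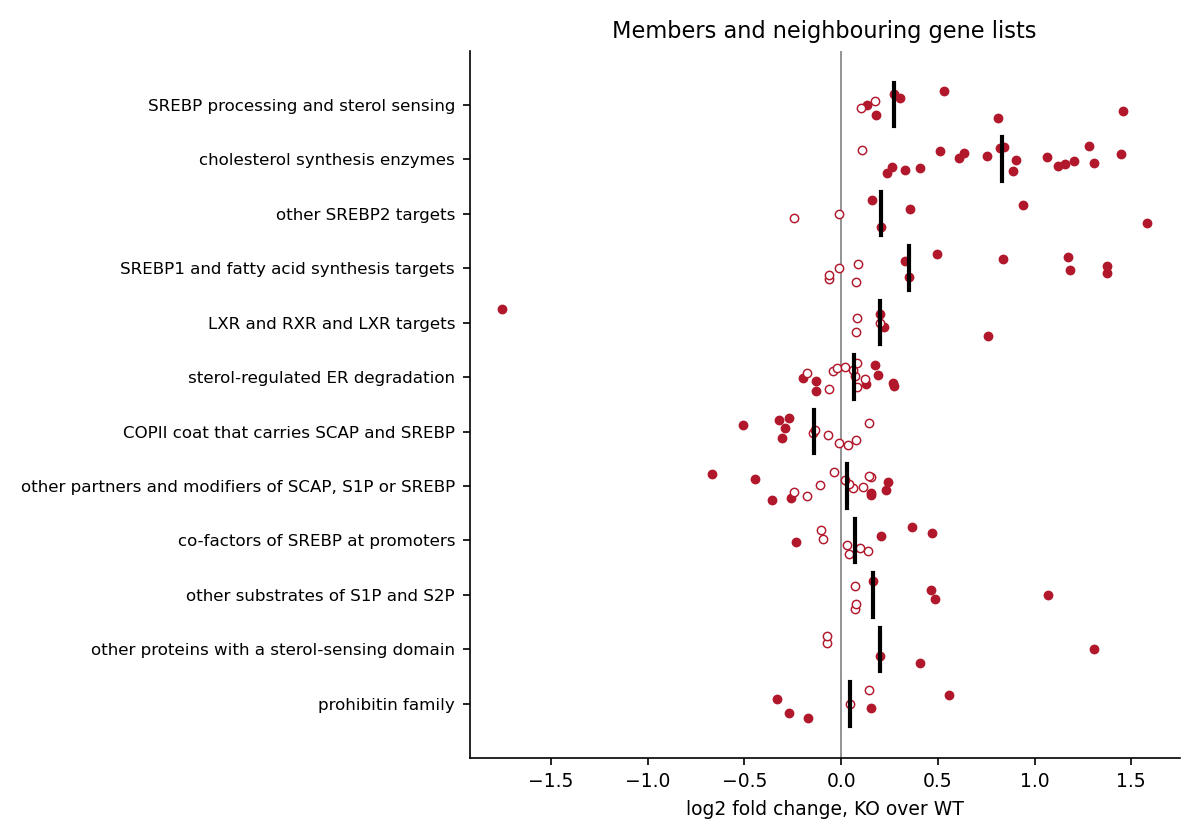
Log2 fold change, KO over WT, of every tested gene (points, filled where the adjusted p was below 0.05) in the set of 9 and in 11 related lists, with the median of each list as a black bar and no change as the grey line. The medians were 0.27 for the set of 9, 0.83 for cholesterol synthesis and -0.14 for the COPII coat.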

How the data were processed

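RNA of MA-10 cells was measured in 4 KO and 4 WT libraries after selection of mRNA on poly-T beads. The authors deposited raw read counts per gene. The processing notes name HISAT2 2.0.5 and featureCounts 1.5.0-p3, and give mm39, GRCh37 and hg19 as builds without a role. The positions of all 9 genes overlap those of RefSeq GRCm38.p6. The sources used here state no setting for strand or multiple matches.

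KO and WT counts were compared with edgeR 4.0.16 in R 4.3.3 (filterByExpr with minimum count 10 and minimum total 15, TMM, glmQLFit and glmQLFTest, genotype as the only term), and p was adjusted by Benjamini-Hochberg over 13185 tested genes. A gene was called at an adjusted p below 0.05. The biological coefficient of variation was 7.11%. Depth was 14927989 to 18394797 counts, and counting error at the lowest count of a gene was 1.00% to 5.79%. CPM were scaled by TMM. TPM used the gene length of the table. Alternatives were DESeq2 1.42.0, limma 3.58.1 (voom), DESeq2 size factors, total counts, other filters, a replicate block, each library left out, a fold limit of 0.5 on the log2 scale (as a limit and by glmTreat), and chromosome medians taken as 0. Ratios were tested by exact permutation (Python 3.11, scipy 1.17.1). The fit was tested on simulated data.

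The set and the lists were chosen with earlier results of these data known. Named genes were Mttp, the 9 genes, up to 4 called members of each list with the largest change and its most abundant member, and the 5 nearest profiles to Insig1 and to Srebf2, and the other genes named as examples, such as Rhox5, Sar1b and Msmo1, were chosen after their values were seen. Some genes that this rule takes are not reported here by name, while counts and medians over lists include them. Protein sequences were not analysed here.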

Additional observations from a re-analysis of the deposited data

Results flagged for a closer look

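In 140 groups of 4 libraries (the genes named and the 6 ratios) a test for an outlying library marked 5, and chance marks about 1 in 20 such groups. Mbtps1 had 128 CPM in KO library 3, below the other KO libraries, which all rounded to 135 CPM. Leaving that library out gave a log2 fold change of 0.15 for Mbtps1 and kept the call. Flot2 had 73.2 CPM in KO library 4, below 77.7 to 77.8 CPM in the other KO libraries. Cd68 had 4.46 CPM in KO library 3, above 2.92 to 3.18 CPM in the other KO libraries. Clu had 959 CPM in WT library 4, below 1060 CPM in each of the other WT libraries after rounding, and Cdh5 had 180 CPM in the same library, below 205 to 207 CPM.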

How the results depend on the processing

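The calls of Insig1 and Erlin1 held under all 17 alternatives, with log2 fold changes from 1.40 to 1.49 and from 0.30 to 0.84. Those of Srebf2 (0.42 to 0.57), Scap (0.26 to 0.33) and Srebf1 (0.25 to 0.31) held under 16 of 17, and were lost only in the test against a fold limit of 0.5, in which the estimates stay at 0.53 for Srebf2 (adjusted p = 0.857), 0.30 for Scap and 0.27 for Srebf1, by construction. In that test Mbtps1 (0.13) and Erlin2 (0.18) were also lost, and the counts over all genes became 451 higher and 552 lower, against 2856 and 2776. With an added limit of 0.5 they were 969 and 1113. Mbtps1 also lost its call with no filter (0.14, adjusted p = 0.0593), and relative to chromosome medians (0.10), as did Erlin2 (0.15).

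KO and WT libraries share replicate numbers, but same-numbered libraries did not deviate together (r from -0.152 to 0.0407). These values show no sign of pairing by number, but cannot tell whether same-numbered cultures were handled together. A replicate block left 5 of the 9 genes called higher, and the calls of Mbtps1 (0.13, adjusted p = 0.0811) and Erlin2 (0.18, adjusted p = 0.0888) were lost. With the block, ER degradation had 3 higher and 1 lower, and the prohibitin family 0 higher. The paired log2 ratios equal the unpaired ones by construction: 0.258 (Srebf2 to Srebf1), 1.35 (Insig1 to Insig2), 1.10 (both Insig genes to Scap), 0.23 (Srebf2 to Scap) and 0.631 (Erlin1 to Erlin2). The exact sign-flip p of 0.125 is the smallest that 4 pairs allow.

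When each library was left out, the log2 fold changes ranged from 0.11 to 0.15 for Mbtps1, 0.15 to 0.23 for Erlin2 and 0.11 to 0.28 for Mbtps2. The log2 ratios ranged from 0.227 to 0.313 (Srebf2 to Srebf1), 1.27 to 1.44 (Insig1 to Insig2), 1.06 to 1.16 (both Insig genes to Scap), 0.195 to 0.275 (Srebf2 to Scap) and 0.562 to 0.675 (Erlin1 to Erlin2), all with an exact permutation p = 0.0571, the smallest that 3 against 4 allows. The ratio of Mbtps1 to Mbtps2 ranged from -0.13 to 0.0391. ER degradation had 3 to 5 higher and 0 to 3 lower, the COPII coat 0 to 1 higher, genes with a sterol-sensing domain 0 to 1 lower, and the prohibitin family 0 to 3 higher.

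Among the lists, no filter gave 1 lower gene of ER degradation and 1 higher gene of the COPII coat, chromosome centring 3 higher genes of ER degradation, total counts 1 higher gene of the prohibitin family, and at least 10 counts in every library 0 lower genes of the LXR list, since Smpdl3a is then not tested. Where no construction is named, the cause was not tested. Insig2 and Mbtps2 had 298 to 591 counts per library, and their intervals of -0.07 to 0.28 and -0.03 to 0.38 (log2) bound the change.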

Other observations

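In the search of RefSeq promoters (GRCm38.p6), the shorter element TCACNCCA was found on either strand in 4 of the 13 COPII coat genes with an entry (30.8%), Sar1b, Sec24a, Sec24b and Sec24d, against 4.97% of all 27025 genes with an entry. Of the cholesterol synthesis enzymes 2 of 15 held it (13.3%), Hmgcs1 and Msmo1. This motif was added after the sequences had been seen, the numbers are small, and no test was made. Sec24a, Sec24b and Sec24d were among the genes that fell in KO cells, while Sar1b had a log2 fold change of 0.08 and was not called. Sec24d was the other gene of the lists with the full core TCACNCCAC (capitals), at chr3:123267254-123267302 on the plus strand, shown 5′ to 3′ for comparison with the Hmgcs1 stretch.
Sec24d promoter, part: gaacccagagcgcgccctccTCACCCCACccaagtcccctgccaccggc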
